A study of Homo sapiens with 8 samples.

Results

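SAS-L1 is an established human oral squamous cell carcinoma (OSCC) cell line, and it was the line that the study carried into xenografts. It was chosen here by name, as the 2 arrays whose labels give SAS-L1, out of 8 arrays in all. The other 3 OSCC lines were HSC2, HSC3 and Ca9-22. Cells of every line received 20 nM of a miR-375-3p mimic (miR-375) or 20 nM of a non-targeting mimic (miR-NT), and RNA was taken 48 h later. Each line and condition had 1 Affymetrix Human Genome U219 array, so 2 arrays came from SAS-L1 and 6 from the other lines. All groups share the lipid transfection and the dose of synthetic RNA, and no untransfected cells were among the samples. Each line is a single cell population from culture, so a difference between lines is a difference between these populations.

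MicroRNAs are short RNAs that guide Argonaute proteins to messenger RNAs, mostly through the seed near their 5′ end, and the paired messengers are then degraded or translated less. miR-375-3p is known as a microRNA of pancreatic islets and of differentiated squamous epithelium. The study did not detect it in any of these OSCC lines. The mature human sequence shows which bases the mimic presents to its targets. It comes from RefSeq (GRCh38.p14, MIR375, chr2:219001648-219001669, minus strand) and is given 5′ to 3′ with the seed, bases 2 to 8, in capitals. It is the sequence of the natural microRNA, whose name the mimic carries. The stretch of messenger RNA that pairs with the seed reads CGAACAA.
hsa-miR-375-3p: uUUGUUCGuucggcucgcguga

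The values are log2 signals from the robust multichip average (RMA), so a difference of 1 is a 2-fold difference. Array medians lay between 4.96 and 5.00. The signals of SAS-L1 were those of an epithelial line: the adhesion molecule EPCAM read 11.36 with miR-375 and 11.42 with miR-NT, and E-cadherin (CDH1) read 9.16 with miR-375 and 9.38 with miR-NT. The basal keratin KRT5 read 6.43 with miR-375 and 8.90 with miR-NT. Its partner KRT14 read 4.05 with miR-375 and 4.61 with miR-NT, under the median of all probe sets, as it did in Ca9-22 at 4.21 with miR-375 and 4.28 with miR-NT. Of 10 fibroblast markers, 8 were under the median of all probe sets on every array, and their mean level was 4.00 and 4.14 in SAS-L1 against 3.95 to 4.19 in the other lines. Of 15 immune and endothelial markers, 9 were under it on every array.

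First, the distance of SAS-L1 from the other lines was examined. Averaged over its 2 arrays, SAS-L1 differed by over 2-fold from HSC2 at 1595 genes, from HSC3 at 1327 and from Ca9-22 at 1399, of 18239 genes measured. The pairs among the other lines gave 1157, 1320 and 1550 such genes, so the pairs with SAS-L1 and those without it overlapped in range. Both SAS-L1 arrays lay above all 6 other arrays at 1738 genes (9.53% of all genes) and below them at 1659 genes (9.10%). For HSC2 the counts were 1677 above and 1320 below, for HSC3 1207 and 2231, and for Ca9-22 2062 and 1290. A gap of over 4-fold to the nearest other array was seen at 26 genes above and 25 below in SAS-L1. In the other lines that gap was seen at 13, 7 and 11 genes above and at 9, 6 and 23 genes below, in HSC2, HSC3 and Ca9-22 in turn.

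With the line as the unit, SAS-L1 was compared as 1 line with 3 in limma, and no gene passed an adjusted p of 0.05 (0% of 18239), while 1166 genes had an unadjusted p under 0.05. Counting all 8 arrays singly with treatment as a block, limma called 224 genes higher (1.23%) and 194 genes lower (1.06%) in SAS-L1. That fit treats the 2 arrays of a line as separate samples, and so its p-values are too small for a comparison of lines. With the line as a random block, 32 genes were called higher and 24 lower. In a permutation of 1 line against 3, the smallest possible p is 0.25. The levels below are therefore given as measured, with the spread over the other arrays, and adjusted p-values come from limma on line means or, where so named, from limma on 8 arrays.

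The genes that stood highest above the other lines in SAS-L1 included a TEAD cofactor, a simple-epithelial keratin and a neuropeptide, all far dimmer in the other lines. VGLL3, a vestigial-like partner of the TEAD transcription factors, read 11.55 with miR-375 and 11.68 with miR-NT in SAS-L1, against 5.03 to 6.57 (median 5.88) on the other 6 arrays. This difference of 5.79 ± 0.48 (SE), 55.4-fold, had an adjusted p of 0.31 on line means and 0.00122 on 8 arrays in limma. Of the 3 VGLL3 probe sets, 2 were over 2-fold higher and the other differed by 0.26. KRT7, a keratin of simple and ductal epithelia, read 9.75 with miR-375 and 10.32 with miR-NT in SAS-L1, against 3.89 to 5.35 (median 4.30) elsewhere, a 49.4-fold difference.

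GAL, which encodes the neuropeptide galanin, read 8.35 with miR-375 and 8.58 with miR-NT in SAS-L1, against 2.93 to 3.24 (median 3.10) on the other arrays. Its other 3 lines differed by little, and its adjusted p in limma was 0.0923 on line means, a value that no gene went under, and 2.42e-06 on 8 arrays. CYP24A1, the enzyme that breaks down active vitamin D, shared that p of 0.0923 with 8.91 with miR-375 and 8.68 with miR-NT in SAS-L1, against 4.65 to 4.90 (median 4.82) elsewhere. Both genes were thus in the lower part of the scale in every other line and well expressed in SAS-L1. The third gene with that p, SLCO1B3, an organic anion transporter, was on the low side in SAS-L1, with 3.71 with miR-375 and 3.78 with miR-NT against 7.24 to 7.92 (median 7.59).

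Further genes of this kind were KRTAP2-3, a hair keratin-associated protein whose copies in the genome are near identical and whose signal is uncertain for that reason (14.2-fold), and COXFA4L3 (14.1-fold). At the remaining leaders another line came closer. TGM2, tissue transglutaminase, read 10.75 with miR-375 and 10.48 with miR-NT in SAS-L1, with HSC3 close behind at 8.93 with miR-375 and 10.13 with miR-NT, and 3.86 to 4.10 in HSC2 and Ca9-22. FN1, the matrix protein fibronectin, read 10.23 with miR-375 and 10.51 with miR-NT in SAS-L1, against 9.61 with miR-375 and 9.45 with miR-NT in HSC2, 7.14 with miR-375 and 6.55 with miR-NT in HSC3, and 3.00 with miR-375 and 2.97 with miR-NT in Ca9-22. CST6 (cystatin E/M, 20.1-fold), the imprinted gene MEST (16.7-fold), PRTFDC1 (15.5-fold) and ETFRF1 (3.90 higher on the log2 scale) completed the 12. Adjusted p on line means was 0.668 or more for these 6 genes.

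The genes that stood lowest in SAS-L1 included a histone gene, aldo-keto reductases and a subunit of the oligosaccharyltransferase. TUSC3, part of the complex that attaches N-glycans to new proteins, read 3.63 with miR-375 and 3.32 with miR-NT in SAS-L1, against 8.47 to 9.92 (median 9.28) on the other 6 arrays. Both of its probe sets showed this, at -6.23 and -5.74 on the log2 scale, and its adjusted p was 0.31 on line means and 0.00122 on 8 arrays in limma. H2BC12, a histone H2B gene, read 3.31 with miR-375 and 3.67 with miR-NT in SAS-L1, against 8.28 to 11.23 (median 10.66) elsewhere. Only 1 of the 2 probe sets of H2BC12 showed it, and the other differed by -0.01.

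AKR1C2, a reductase of steroids and carbonyls, read 4.20 with miR-375 and 4.14 with miR-NT in SAS-L1, against 8.45 to 11.27 (median 9.99) on the other arrays. Its close relative AKR1C1 read 4.06 with miR-375 and 3.87 with miR-NT, against 7.03 to 10.80 (median 9.58). These 2 genes are so alike that probes may read both, and 1 of 5 probe sets of AKR1C2 and 2 of 2 of AKR1C1 were over 2-fold lower. CASP1, the caspase that activates interleukin-1 beta, read 4.51 with miR-375 and 4.27 with miR-NT in SAS-L1, against 8.74 to 9.35 (median 8.91), and was lower at 7 of 9 probe sets.

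UBQLN2, a shuttle for the proteasome, read 2.95 with miR-375 and 3.22 with miR-NT in SAS-L1, against 7.51 to 8.78 (median 8.07) elsewhere, and all 3 of its probe sets were over 2-fold lower. FAT1, a giant cadherin known as a tumour suppressor in OSCC, read 5.02 with miR-375 and 4.53 with miR-NT, against 8.76 to 10.85 (median 8.93). The other 5 were carbonic anhydrase CA2 (17.6-fold lower), the ubiquitin ligase RNF128 (17.1-fold), FEZ1 (15.6-fold), the long noncoding RNA CRNDE (15.1-fold) and the antiproliferative gene BTG3 (14.6-fold). Of the 24 leading genes, 15 were called on 8 arrays and 11 with the line as a random block. When SAS-L1 was set against each line singly with the 2 arrays of a line as replicates, 23 were called. The 24 were picked for large differences in these same arrays, so these counts are not independent of the choice. Over all 18239 genes, 418 were called on 8 arrays, 32 higher and 24 lower with the random block, and 705 higher and 620 lower than each line singly.

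**Figure D1:**
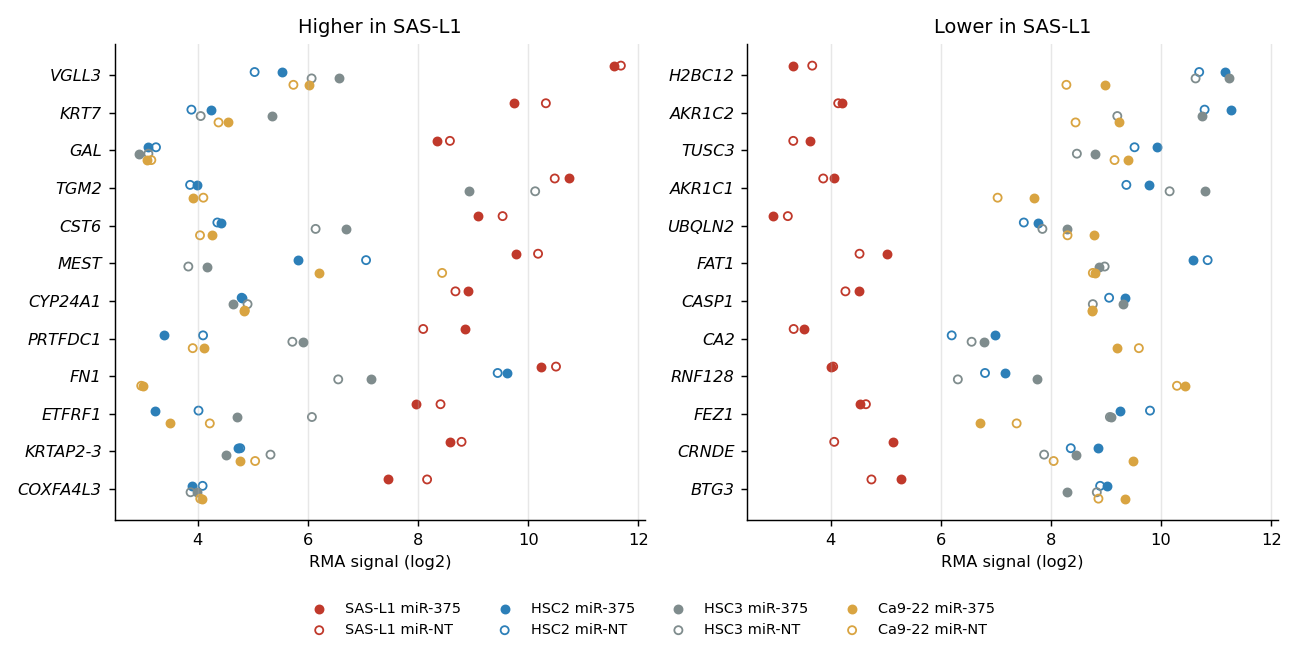
Log2 RMA signal of the 12 genes highest above and the 12 lowest below the other lines in SAS-L1, 1 point per array, filled for miR-375 and open for miR-NT, colored by line. The SAS-L1 points of GAL lie at 8.35 with miR-375 and 8.58 with miR-NT, against at most 3.24 elsewhere, whereas TGM2 and FN1 were also bright in another line.

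Next, gene groups were read by how many members had both SAS-L1 arrays outside the other 6, beside the 9.53% above and 9.10% below over all genes. Squamous and basal epithelial genes lay far on the low side, since 0 of 15 measured were above and 9 were below. Their median difference was -1.67, against -0.01 over all genes, and 3 were called lower on 8 arrays. The desmosomal cadherin DSC3 read 3.70 with miR-375 and 3.88 with miR-NT in SAS-L1, against 5.29 to 6.68 (median 5.98) elsewhere. Its relative DSG3 read 5.71 with miR-375 and 6.33 with miR-NT, against 7.21 to 8.51 (median 7.93). DST, the plakin that anchors keratins at hemidesmosomes, read 6.24 with miR-375 and 7.89 with miR-NT, against 8.09 to 10.12 (median 9.11). KRT15, PKP1, TRIM29, SFN, ITGB4 and PERP were the other 6 members below the range.

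Junction and cornification genes did not all go the same way. Of 32 epithelial junction genes, 5 were above and 7 below, and the median difference was -0.12. Plakoglobin (JUP), which sits in both desmosomes and adherens junctions, was lower by 1.32 (log2), with 7.72 with miR-375 and 7.84 with miR-NT in SAS-L1 against 8.85 to 9.45 (median 9.05). ESRP2, a splicing regulator of epithelial cells, was higher by 1.26. Of 35 keratinocyte differentiation genes, 4 were above and 8 below with a median of 0.00. KRT10, the suprabasal keratin, read 6.66 with miR-375 and 6.22 with miR-NT in SAS-L1, against 7.94 to 8.97 (median 8.60), while the kallikrein protease KLK6 read 7.36 with miR-375 and 7.89 with miR-NT, against 5.72 to 6.26 (median 6.04). Of 15 simple-epithelial genes, KRT7 and EPCAM were above, and SLPI and LCN2 were below. Of 38 mesenchymal genes, 2 were above (FN1 and the transcription factor TWIST1) and 6 below, with a median of 0.02. TWIST1 read 6.89 with miR-375 and 6.41 with miR-NT in SAS-L1, against 4.81 to 5.86 (median 5.39). Vimentin (VIM) overlapped, at 6.29 with miR-375 and 7.88 with miR-NT in SAS-L1, against 5.87 to 11.86.

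Enzymes of xenobiotic and redox metabolism, many of them targets of NRF2, were split. Of 31 measured, 3 were above and 10 below the other lines, and the median difference was -0.30. Besides AKR1C1 and AKR1C2, the carbonyl reductase CBR1 read 5.80 with miR-375 and 5.85 with miR-NT in SAS-L1, against 8.49 to 9.58 (median 8.89). ALDH1A3, which makes retinoic acid, read 7.24 with miR-375 and 6.92 with miR-NT, against 9.73 to 11.79 (median 10.57). In the other direction the glutathione transferase GSTM3 read 7.43 with miR-375 and 6.75 with miR-NT, against 3.65 to 4.28 (median 3.78). NQO1, a widely used NRF2 target, overlapped with the other lines at 10.59 with miR-375 and 10.65 with miR-NT, against 9.98 to 10.81.

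Interferon-stimulated, ER stress and lysosomal genes outside the range were mostly on the low side in SAS-L1. With miR-NT, the mean level of the ATF4 and ER stress group was 8.02 in SAS-L1, near the 8.11 of HSC3, against 8.90 in HSC2 and 8.54 in Ca9-22. For interferon-stimulated genes it was 5.71 in SAS-L1, against 7.29 in HSC2, 6.02 in HSC3 and 6.30 in Ca9-22. For lysosomal genes it was 7.58 in SAS-L1, against 7.92, 7.85 and 7.98 in the same lines. For the 30 interferon-stimulated genes, 0 were above and 6 below, with a median of -0.51. ISG15, the ubiquitin-like protein that interferon induces, read 6.31 with miR-375 and 5.37 with miR-NT in SAS-L1, against 7.06 to 9.01 (median 7.84) elsewhere, and IFITM1 was 9.25-fold lower. Of 31 genes of the ATF4 and ER stress responses, 1 was above and 9 below, with a median of -0.50. DDIT4, an inhibitor of mTORC1, read 6.38 with miR-375 and 6.57 with miR-NT, against 8.97 to 11.37 (median 9.81), and the secreted hormone STC2 was the member above, with 9.54 with miR-375 and 9.79 with miR-NT, against 6.34 to 8.53 (median 7.83). Of 33 lysosomal genes, 8 were below and GAA alone was above, and the median was -0.50. None of the interferon-stimulated genes and 1 of the ATF4 and ER stress genes (DDIT4) was called on 8 arrays in limma.

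Targets of YAP and TEAD were on the high side, as 9 of 23 measured were above and 0 below, with a median of 0.51, and 2 were called on 8 arrays. With miR-NT alone their mean level was 7.89 in SAS-L1, against 7.15 for HSC2, 7.71 for HSC3 and 6.92 for Ca9-22, so HSC3 was close. With miR-375 it was 7.76 in SAS-L1, against 6.96 for HSC2, 6.97 for HSC3 and 6.47 for Ca9-22. CCN2, also a member, was lower with miR-NT in SAS-L1 than in HSC3. VGLL3 was not a member of that group, and a link between its signal and these targets was not tested. WWC1, a Hippo pathway scaffold, read 10.24 with miR-375 and 10.76 with miR-NT, against 5.60 to 8.72 (median 6.74). CCN1, a matricellular protein, read 11.65 with miR-375 and 11.33 with miR-NT, against 8.22 to 10.81 (median 9.12). ANKRD1 read 5.43 with miR-375 and 5.23 with miR-NT, against 3.36 to 3.90 (median 3.53), in the lower part of the scale. It was called on 8 arrays at an adjusted p of 0.00637 in limma. YAP1 itself overlapped, with 7.75 with miR-375 and 9.37 with miR-NT in SAS-L1, against 7.25 to 10.28 (median 8.88).

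Of 38 genes of mitosis and DNA replication, 11 were above and 0 below, with a median of 0.28, although none was called on 8 arrays. With miR-NT alone their mean level was 9.03 in SAS-L1, against 8.75 for HSC2, 8.94 for HSC3 and 9.16 for Ca9-22, so Ca9-22 was higher. With miR-375 it was 9.15 in SAS-L1, against 8.53 for HSC2, 8.05 for HSC3 and 8.98 for Ca9-22. MKI67, the proliferation antigen, read 8.50 with miR-375 and 8.53 with miR-NT in SAS-L1, against 7.30 to 8.36 (median 7.86) elsewhere. MYC read 10.75 with miR-375 and 10.85 with miR-NT, against 8.52 to 9.93 (median 9.60). Of 24 genes of the G1-S step and its inhibitors, 2 were above and 4 below, with a median of 0.00. The cyclin-dependent kinase inhibitors CDKN1B and CDKN1A were below: CDKN1B (p27) read 7.05 with miR-375 and 6.93 with miR-NT, against 7.97 to 8.92 (median 8.36), and CDKN1A (p21) read 8.56 with miR-375 and 8.76 with miR-NT, against 8.86 to 10.27 (median 9.77).

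Among secreted factors and receptors, single members stood out in SAS-L1, with IL6 and CCL20 high and MMP1, NRG1 and EGFR low. IL6 read 8.62 with miR-375 and 8.03 with miR-NT, against 3.93 to 6.09 (median 4.61). The chemokine CCL20 read 11.13 with miR-375 and 10.67 with miR-NT, against 4.85 to 9.18 (median 8.25). The collagenase MMP1 read 7.62 with miR-375 and 8.45 with miR-NT, against 10.73 to 11.58 (median 11.37), and the ERBB3 ligand NRG1 read 5.01 with miR-375 and 5.98 with miR-NT, against 7.68 to 9.85 (median 8.70). EGFR read 8.15 on both SAS-L1 arrays, against 9.40 to 10.92 (median 9.81). FGFR1 read 6.50 with miR-375 and 6.35 with miR-NT, against 5.09 to 5.69 (median 5.44). As groups, 3 of 34 cytokine and NF-kB genes were above and 1 below, and 3 of 25 growth factor receptors and ligands were above and 4 below. Over all genes 9.53% were above and 9.1% below, and the median differences of the 2 groups were -0.04 and -0.07. The genes named here are thus single members and not a trait of their groups.

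Integrins of SAS-L1 differed in the same patchy manner, with 2 of 19 above and 5 below. ITGA4, the alpha chain of the VCAM1 and fibronectin receptor, read 5.72 with miR-375 and 5.76 with miR-NT, against 3.65 to 3.76 (median 3.68). The other lines were thus near the floor, under the lower quartile of all probe sets (3.87). Its adjusted p of 6.29e-05 came from limma on 8 arrays, which counts the 2 arrays of a line singly. The shared beta chain ITGB1 differed by -1.06, with 10.78 in SAS-L1 with miR-375, against 11.77 to 12.19 (median 11.89) elsewhere. ITGAV read 8.93 with miR-375 and 8.72 with miR-NT, against 9.50 to 10.43 (median 9.97).

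Since the mimic acts through the silencing machinery, the genes of that machinery were read as well. Of 26 measured, 5 were above and 3 below, with a median of 0.16. AGO2, the Argonaute with slicer activity, was 2.00-fold higher in SAS-L1, at 8.77 with miR-375 and 8.57 with miR-NT, against 7.48 to 7.89 (median 7.69). AGO1 read 7.39 with miR-375 and 7.81 with miR-NT, against 6.74 to 7.36 (median 6.96). TNRC6B, a GW182 protein that recruits the deadenylases, was lower at 6.90 with miR-375 and 6.73 with miR-NT, against 7.25 to 8.34 (median 7.74), and AGO3 was lower by 0.58 (log2). DICER1 overlapped with the other lines at 8.96 on both SAS-L1 arrays. Of the 26, AGO1 and AGO2 were called higher and DGCR8, the partner of DROSHA, lower on 8 arrays.

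**Figure D2:**
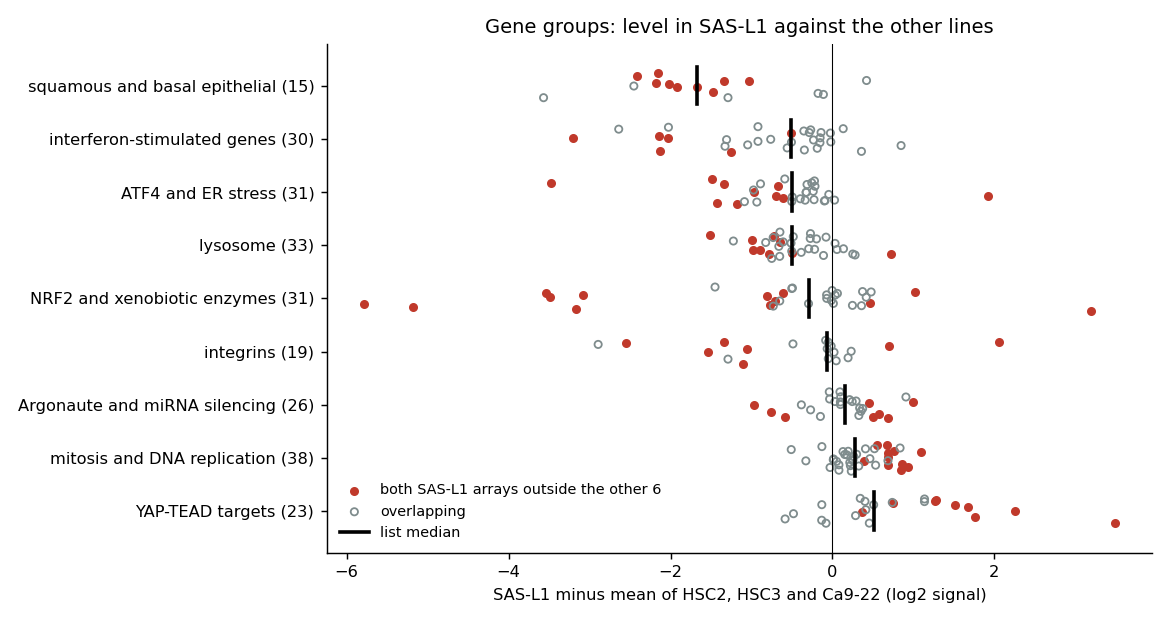
Difference in level between SAS-L1 and the mean of the other 3 lines (log2), 1 point per gene, for 9 groups with the number measured in brackets. Red points have both SAS-L1 arrays outside the other 6, and black bars are group medians, from -1.67 for squamous and basal epithelial genes to 0.51 for YAP-TEAD targets.

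Some of the genes that set SAS-L1 apart were neighbors on a chromosome. The RefSeq annotation was used only for the order of genes, and the stretches were chosen after the values were seen. On chromosome 3, VGLL3, CHMP2B, CGGBP1, ZNF654 and C3orf38 were higher in SAS-L1 by 55.4-, 8.53-, 7.87-, 6.01- and 9.23-fold in that order. Between the flanking genes GBE1 and EPHA3, these 5 and POU1F1 were above all other arrays, out of 9 measured with the flanks, and POU1F1, HTR1F and EPHA3 were under the median of all probe sets on every array. GBE1 differed by -0.28. CHMP2B, a subunit of the ESCRT-III complex, averaged 12.23 in SAS-L1, against 8.99 in HSC2, 8.81 in HSC3 and 9.61 in Ca9-22, near the top of the scale.

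On chromosome 12, the kinase gene DYRK2 averaged 8.37 in SAS-L1, against 5.64, 5.79 and 5.70 in HSC2, HSC3 and Ca9-22. After it, MDM1, RAP1B, NUP107, YEATS4 and CCT2 were also above all other arrays, by 3.76-, 1.79-, 2.67-, 3.30- and 2.51-fold on average. SLC35E3 and MDM2, the ubiquitin ligase of p53, were 2.28- and 2.19-fold higher on average and overlapped with single arrays of the other lines. Of 17 genes measured from DYRK2 to RAB3IP, 6 were above all other arrays, and 6 were under the median of all probe sets on every array. On chromosome 7 SAS-L1 was on the low side, as EGFR, LANCL2, VOPP1, MRPS17 and NIPSNAP2 were 3.19- to 3.71-fold lower than the mean of the other lines. HSC2 was the highest line at these 5 genes, with EGFR at 10.86 and LANCL2 at 10.72, and SAS-L1 had 8.15 and 7.84. HSC3 came closer to SAS-L1, with 8.72 at LANCL2, 9.10 at MRPS17 (8.33 in SAS-L1) and 9.80 at NIPSNAP2 (8.91 in SAS-L1). Of 9 genes measured from EGFR to CCT6A, 7 were below all other arrays, and PSPH and ZNF713 were not. In this stretch 2 genes were under the median of all probe sets on every array. Copy number was not measured here.

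**Figure D3:**
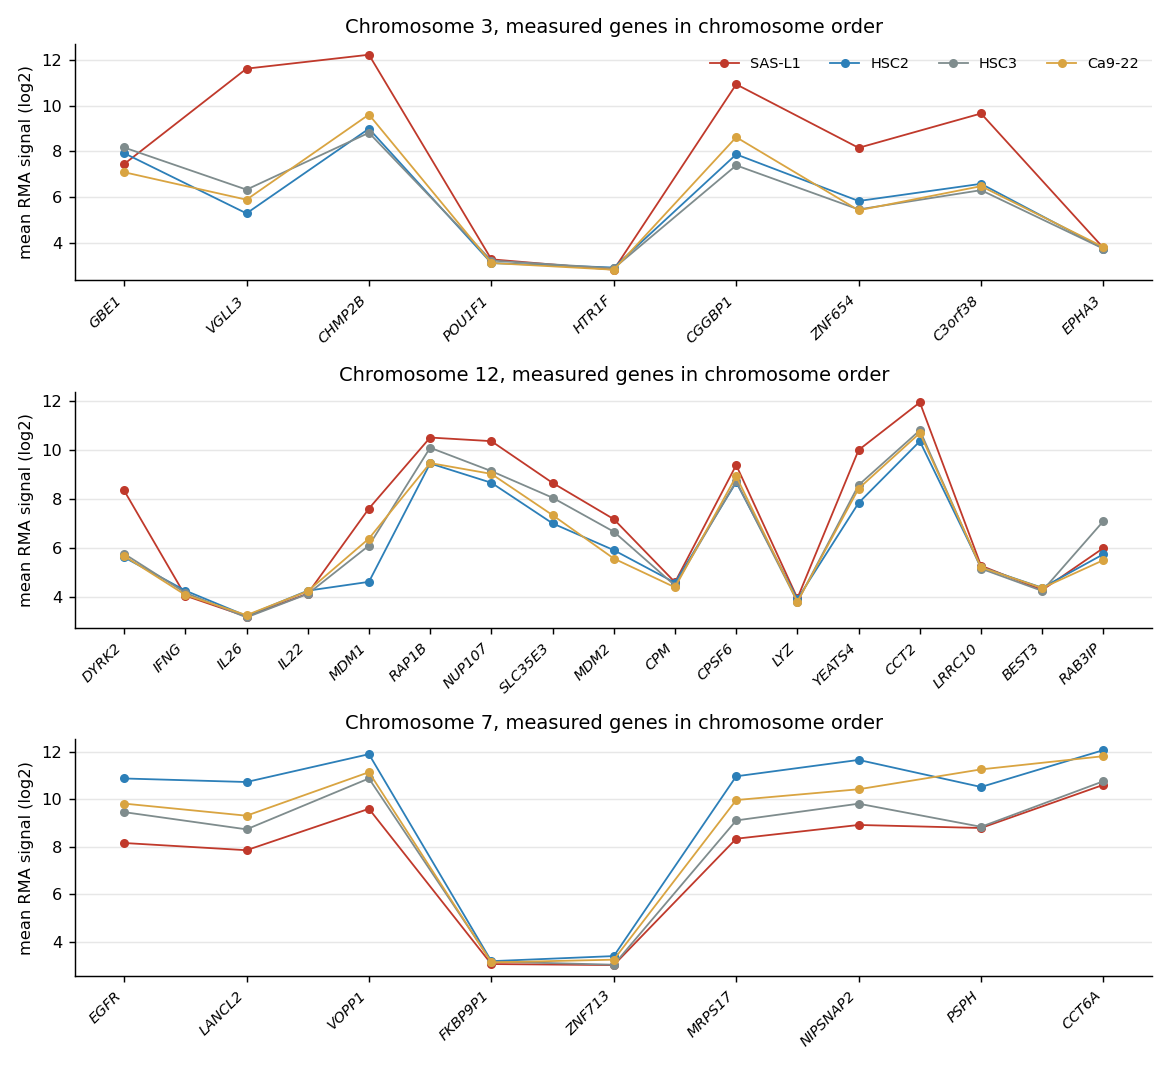
Mean log2 RMA signal of each line over its 2 arrays for measured genes in chromosome order on chromosomes 3, 12 and 7. SAS-L1 lies above the other lines from VGLL3 to C3orf38, at DYRK2 and from MDM1 to CCT2 except at genes near the floor, and below them from EGFR to NIPSNAP2.

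The response to the mimic was then compared, as miR-375 minus miR-NT within each line. With 1 array per side, a single difference within SAS-L1 has no replicate check, and no p-value was computed from it. Its differences were the narrowest of the 4 lines, with an SD across genes of 0.275, against 0.324 in HSC2, 0.404 in HSC3 and 0.379 in Ca9-22. Over 2-fold lower were 107 genes (0.587%) in SAS-L1, against 1.17%, 2.20% and 2.02% of genes in HSC2, HSC3 and Ca9-22. Over 2-fold higher were 67 genes (0.367%) in SAS-L1, close to the 74 (0.406%) of HSC2, against 250 in HSC3 and 171 in Ca9-22. Over 1.5-fold lower were 444 genes (2.43%) in SAS-L1, against 654, 1031 and 947 in HSC2, HSC3 and Ca9-22, and over 1.5-fold higher were 453 genes (2.48%), against 607, 1082 and 847. Its median over all genes was 0.01.

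To read SAS-L1 on genes it had no part in choosing, genes were called in HSC2, HSC3 and Ca9-22 alone by limma with the line as a block, which gave 797 lower (4.37%) and 858 higher (4.70%) with miR-375. In SAS-L1, 755 of the 797 (94.7%) were also lower and 787 of the 858 (91.7%) were also higher. The median SAS-L1 difference was -0.44 over the lower genes and 0.37 over the higher ones, whereas the lines that called them had -0.78 and 0.55, values raised in size by the choice itself. The ratio of the SAS-L1 median to that of the calling lines was 0.57 for lower genes and 0.68 for higher ones. The same reading with another line left out gave -0.83 in HSC2, -0.87 in HSC3 and -0.89 in Ca9-22 for lower genes, with ratios of 0.91, 1.11 and 1.20. For higher genes it gave 0.51, 0.58 and 0.49, with ratios of 0.79, 1.04 and 0.90. With HSC2, HSC3 or Ca9-22 left out of the calling as well, the SAS-L1 medians were -0.81, -0.67 and -0.61 over lower genes and 0.63, 0.55 and 0.44 over higher ones. When array medians were subtracted first, 63.2% of the calls in the other 3 lines were lower, against 48.2% as deposited.

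SAS-L1 thus moved in the same direction at most of these genes, and by less at the median. Of the 797, 80 (10.0%) were over 2-fold lower in SAS-L1, against 33.1% of 350 genes read in HSC2, 42.1% of 534 in HSC3 and 43.0% of 537 in Ca9-22. Of the genes called higher, 3.26% were over 2-fold higher in SAS-L1, against 4.72% in HSC2, 14.2% in HSC3 and 10.1% in Ca9-22. These lists differ in size and genes, SAS-L1 is among the callers of the other 3, and the HSC2 list had a larger median in its calling lines (-0.91), so the shares are not over the same genes. Regressed through the origin on the mean of the other 3 lines over all genes, the differences had a slope of 0.55 in SAS-L1, against 0.77 for HSC2, 1.04 for HSC3 and 0.93 for Ca9-22. Each line was set against a different mean, and SAS-L1 is part of the mean used for the other 3. The slopes are therefore not measured on a like scale. Restricting the genes to those whose miR-NT signal in SAS-L1 lay within the range of the other miR-NT arrays left 393 lower and 438 higher genes. Their SAS-L1 medians were -0.45 and 0.37, close to the values over all called genes. Over the same lower genes, the lines that called them had -0.67 (HSC2), -0.77 (HSC3) and -0.79 (Ca9-22). For the higher genes these lines had 0.50, 0.58 and 0.55 in that order. Whether the miR-NT level has a part in the size of the SAS-L1 differences was not tested.

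**Figure D4:**
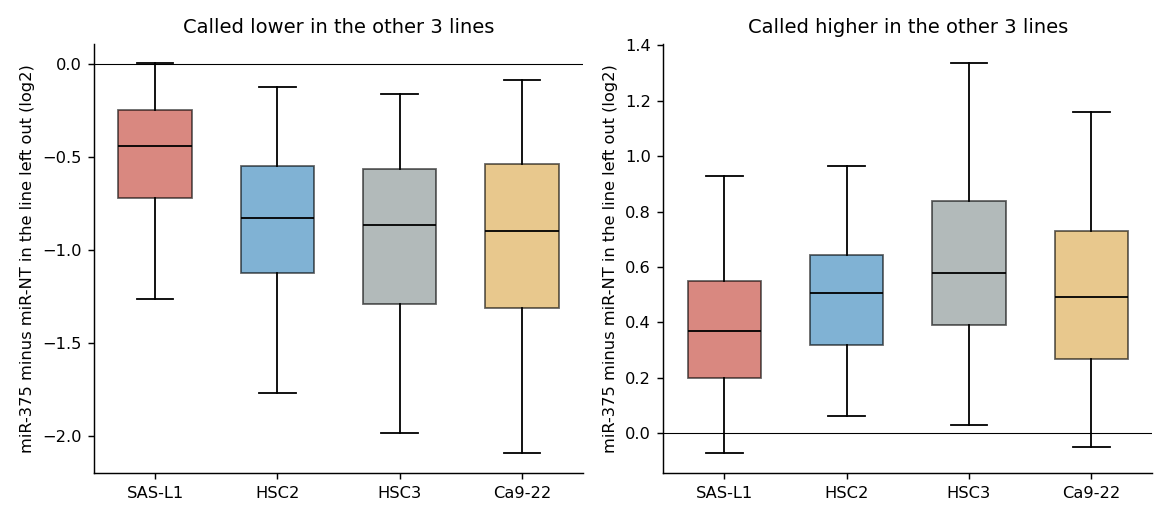
Difference between miR-375 and miR-NT (log2) in each line for genes called lower (left) or higher (right) in the other 3 lines. Boxes are quartiles with the median, and whiskers run from the 5th to the 95th percentile of genes. The SAS-L1 median on the left is -0.44, against -0.83 for HSC2, -0.87 for HSC3 and -0.89 for Ca9-22.

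At 132 genes (0.724% of all) the signal was over 2-fold lower with miR-375 in each of the other 3 lines. In SAS-L1, 51 of them (38.6%) were over 2-fold lower, 112 were over 1.5-fold lower and 20 were not. When HSC2, HSC3 or Ca9-22 was the line left out, the same 51 genes made up 83.6%, 89.5% and 92.7%. SAS-L1 had the smallest difference of the 4 lines at 117 of its 132 genes (88.6%), against 32.6% of all genes. The choice of the 132 fixes this for each of them that differed by under 2-fold in SAS-L1. The share over all genes is therefore not a like baseline. For genes chosen in the same way with another line left out, the shares were 31.1% for HSC2, 15.8% for HSC3 and 12.7% for Ca9-22. With miR-NT the median level of these genes in SAS-L1 was 8.41, against 8.35, 8.39 and 8.19 in HSC2, HSC3 and Ca9-22.

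Several genes had differences in SAS-L1 near those of the other lines. CHST11, a chondroitin sulfotransferase, read 5.49 with miR-375 and 8.05 with miR-NT in SAS-L1, a difference of -2.56 and the largest in that line. It differed by -1.63 in HSC2, -1.75 in HSC3 and -1.86 in Ca9-22. CHSY1, which builds the same glycosaminoglycan chain, differed by -2.11 in SAS-L1, against -2.54 for HSC2, -2.36 for HSC3 and -2.08 for Ca9-22. WWC2, a Hippo scaffold, differed by -2.09 in SAS-L1, against -2.02 for HSC2, -2.39 for HSC3 and -2.78 for Ca9-22. PSIP1, a chromatin reader known as LEDGF, read 6.90 with miR-375 and 8.96 with miR-NT in SAS-L1. Its difference of -2.06 was smaller, against -3.27 for HSC2, -3.46 for HSC3 and -2.85 for Ca9-22.

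At the other end, HDDC2, a nucleotidase, read 8.46 with miR-375 and 8.53 with miR-NT in SAS-L1. HSC2 had 6.71 with miR-375 and 8.07 with miR-NT, HSC3 had 6.47 with miR-375 and 7.86 with miR-NT, and Ca9-22 had 7.51 with miR-375 and 8.98 with miR-NT, so the difference was -0.07 in SAS-L1, against -1.36 for HSC2, -1.39 for HSC3 and -1.47 for Ca9-22. FST, the activin antagonist follistatin, differed by -0.03 in SAS-L1, against -1.25 for HSC2, -1.69 for HSC3 and -1.16 for Ca9-22. Its miR-NT signal was lower in SAS-L1 to begin with, at 7.87, against 9.21 for HSC2, 9.86 for HSC3 and 9.10 for Ca9-22. MCM10, a replication initiation factor, differed by -0.09 in SAS-L1, against -1.20 for HSC2, -2.16 for HSC3 and -1.21 for Ca9-22. DSC3, near the floor in SAS-L1, differed by -0.17, against -1.03 for HSC2, -1.04 for HSC3 and -1.02 for Ca9-22, and CDIN1 by -0.20, against -1.02 for HSC2, -1.45 for HSC3 and -1.30 for Ca9-22.

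Genes that were higher in each of the other 3 lines by over 2-fold were few, at 12, and 4 of them (33.3%) were also over 2-fold higher in SAS-L1. With HSC2, HSC3 or Ca9-22 left out, the shares were 30.8% of 13, 66.7% of 6 and 57.1% of 7 genes, and the median difference was 0.65 in SAS-L1, against 0.73 for HSC2, 1.35 for HSC3 and 1.10 for Ca9-22. SAS-L1 and HSC2 were thus alike in these upward shares. The 4 genes were the peroxisomal enzyme PHYH (1.17), the lysosomal nuclease DNASE2 (1.16), the ubiquitin ligase RNFT1 (1.04) and the transmembrane glycoprotein GPNMB (1.03). The smallest were the histone gene H2AC25 (0.31), SMIM3 (0.43) and the mitochondrial gene GDAP1 (0.46).

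Next, the candidate targets that the text of the study names were read in SAS-L1. The study chose these genes from the present arrays for their lower signal, and their direction is not independent evidence. Of 18 measured, 18 had a lower signal with miR-375 in SAS-L1, 14 by over 1.5-fold. Their median difference was -0.87 in SAS-L1, against -1.29 for HSC2, -1.41 for HSC3 and -1.63 for Ca9-22. The median over all genes was 0.01 in SAS-L1. SAS-L1 had the smallest difference at 15 of the 18.

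QKI, an RNA-binding regulator of splicing, read 6.88 with miR-375 and 8.80 with miR-NT in SAS-L1. HSC2 had 6.19 with miR-375 and 8.80 with miR-NT, HSC3 had 5.38 with miR-375 and 8.44 with miR-NT, and Ca9-22 had 6.02 with miR-375 and 8.97 with miR-NT. All lines thus began at about the same level and the signal left was highest in SAS-L1. UBE2E2, a ubiquitin-conjugating enzyme, and PLEKHA3, a phosphoinositide-binding protein, differed by -1.78 and -1.58 in SAS-L1, against mean differences of the other lines of -2.15 and -1.87. CIP2A, an inhibitor of the phosphatase PP2A, differed by -0.33 in SAS-L1, against -1.36 for HSC2, -1.69 for HSC3 and -1.30 for Ca9-22. CEPT1, which makes phosphatidylcholine and phosphatidylethanolamine, differed by -0.37, against -1.22 for HSC2, -1.10 for HSC3 and -1.06 for Ca9-22. The exceptions were POC1B, PIP4P2 and TIMM8A. POC1B, a centriole protein, differed by -1.45 in SAS-L1, against -0.72 for HSC2, -1.42 for HSC3 and -0.79 for Ca9-22. TIMM8A moved little at its brightest probe set, with differences from -0.12 to -0.22 across the 4 lines. A dimmer TIMM8A probe set moved more, with -0.54 for SAS-L1, against -1.28 for HSC2, -1.65 for HSC3 and -0.69 for Ca9-22. The small TIMM8A values are thus those of 1 probe set.

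Among 16 targets reported earlier for miR-375, the SAS-L1 median was -0.23, against -0.62 for HSC2, -0.35 for HSC3 and -0.16 for Ca9-22. LDHB, a subunit of lactate dehydrogenase, read 10.29 with miR-375 and 11.54 with miR-NT in SAS-L1. HSC2 had 9.04 with miR-375 and 11.30 with miR-NT, HSC3 had 9.26 with miR-375 and 11.62 with miR-NT, and Ca9-22 had 9.04 with miR-375 and 11.52 with miR-NT. The interaction between line and mimic was 1.12 ± 0.16 (SE) with an unadjusted p of 0.000771, and its adjusted p was 1.00 in limma. YWHAZ, a 14-3-3 protein, differed by -0.62 in SAS-L1, against -1.48 for HSC2, -1.33 for HSC3 and -2.02 for Ca9-22. YAP1 differed by -1.63, against -2.10 for HSC2, -1.83 for HSC3 and -2.07 for Ca9-22.

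**Figure D5:**
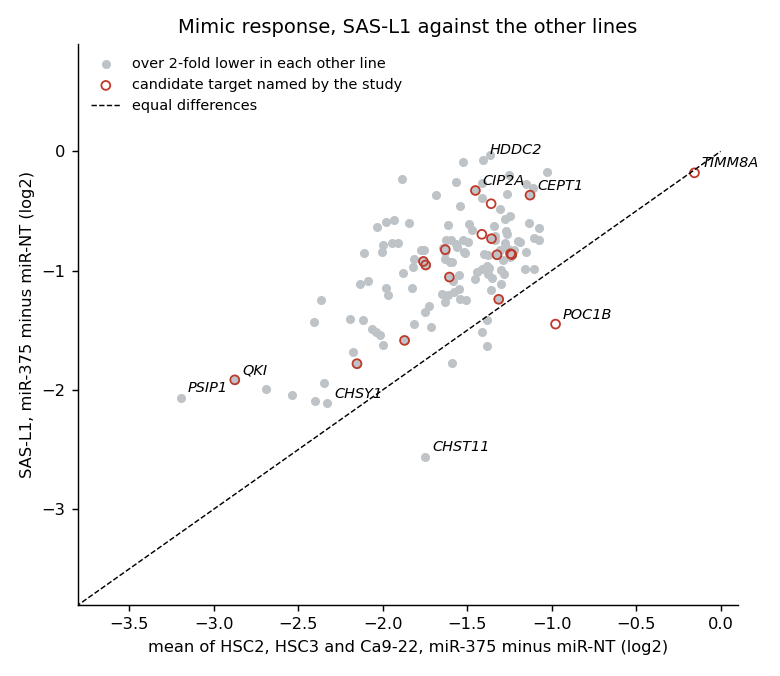
SAS-L1 difference between miR-375 and miR-NT (log2, vertical) against the mean difference of HSC2, HSC3 and Ca9-22 (horizontal), for the 132 genes over 2-fold lower in each other line and the 18 candidate targets. Points above the dashed line had the smaller difference in SAS-L1, and CHST11 and POC1B are among those below it.

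The interaction was tested for every gene, as the difference between the SAS-L1 response and the mean response of the other 3 lines. Its SE comes from the spread of the other 3 lines alone, since SAS-L1 had 1 array per side. No gene passed an adjusted p of 0.05 (0% of 18239), and 787 had an unadjusted p under 0.05. As a share of all genes these 787 were fewer than the 0.05 that such a threshold passes when no gene differs. The gene with the smallest p was SCG2, which encodes secretogranin II, a protein of secretory granules. It read 7.77 with miR-375 and 5.93 with miR-NT in SAS-L1, and 2.91 to 3.28 (median 3.20) on the other 6 arrays, where it was near the floor in both conditions. Its interaction was 1.91 ± 0.15 (SE), with an adjusted p of 0.736 in limma.

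Several genes with small interaction p were likewise detected in SAS-L1 and dim elsewhere. RRAGD, a Rag GTPase of mTORC1, was higher by 1.28 in SAS-L1, and read 3.03 to 3.21 on the other arrays. NNMT, nicotinamide N-methyltransferase, was lower by 1.34, with 6.45 with miR-375 and 7.78 with miR-NT, against 3.53 to 3.84 elsewhere. CPED1 was lower by 1.06, and PKIB, an inhibitor of protein kinase A, was higher by 1.09. Others were expressed in all lines. IL1B, interleukin-1 beta, differed by 0.21 in SAS-L1, against -1.29 for HSC2, -0.99 for HSC3 and -1.02 for Ca9-22, and UACA by -1.48, against -0.15 for HSC2, -0.42 for HSC3 and 0.01 for Ca9-22. VIM differed by -1.60, against -0.15 for HSC2, -0.72 for HSC3 and 0.02 for Ca9-22. The homeobox gene LHX1 differed by -1.32, against -0.05 for HSC2, -0.17 for HSC3 and 0.09 for Ca9-22. PMEPA1, a feedback inhibitor of TGF-beta signaling, differed by -1.12 in SAS-L1, against 0.68 for HSC2, 0.15 for HSC3 and 0.62 for Ca9-22.

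The largest differences within SAS-L1 itself were shared in part. Downward, after CHST11 came KRT5 with -2.48, PUDP, a pseudouridine phosphatase, with -2.25, and NT5E, the ectonucleotidase CD73, with -2.14. KRT5 differed by -1.31 in HSC2, -0.46 in HSC3 and -2.68 in Ca9-22, and PUDP by -0.50, -1.59 and -1.79 in the same lines. Of the 10 largest, MAT2B (-1.99), TBC1D5 (-2.04) and CLVS1 (-1.94) were lower by over 1.9 in every line. Upward, the 3 inhibitors of DNA binding ID1, ID2 and ID3, which block basic helix-loop-helix factors, were among the 10 largest. ID2 was higher by 2.16 in SAS-L1, against 1.67 for HSC2, 0.04 for HSC3 and 1.88 for Ca9-22. ID1 was higher by 1.81, against 0.66 for HSC2, 1.38 for HSC3 and 0.00 for Ca9-22. ID3 was higher by 1.64, against 0.93 for HSC2, 0.73 for HSC3 and 0.17 for Ca9-22. Each of the 3 thus had a line with almost no difference, HSC3 for ID2 and Ca9-22 for ID1 and ID3. CCN2, a matricellular protein of the YAP and TGF-beta pathways, read 6.81 with miR-375 and 4.69 with miR-NT in SAS-L1, whereas in HSC3 it read 3.91 with miR-375 and 7.18 with miR-NT. Its interaction of 3.42 ± 1.27 (SE) had an adjusted p of 1.00 in limma. RGS2 and RGS17, regulators of G-protein signaling, were higher by 1.53 and 1.67.

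By groups, genes of mitosis and DNA replication differed little at the median in SAS-L1. With miR-375, 11 of 38 were lower in SAS-L1 and 2 by over 1.5-fold, with a median of 0.11. The medians were -0.12 in HSC2, -0.88 in HSC3, where 38 of 38 were lower, and -0.20 in Ca9-22. CENPF, a kinetochore protein, differed by -0.60 in SAS-L1, against -1.44 for HSC2, -2.31 for HSC3 and -1.78 for Ca9-22, and MKI67 by -0.02, against -0.48 for HSC2, -1.06 for HSC3 and -0.55 for Ca9-22. Squamous and basal genes had similar medians in the 4 lines, with -0.56 in SAS-L1, against -0.53 for HSC2, -0.46 for HSC3 and -0.62 for Ca9-22, and 7 of 15 were over 1.5-fold lower in SAS-L1 (2.43% over all genes). In the hemidesmosome, DST differed by -1.65 and ITGA6 by -1.56 in SAS-L1, against -0.76 for HSC2, -1.56 for HSC3 and -1.35 for Ca9-22 at DST.

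Lysosomal genes were higher with miR-375 at 30 of 33 in SAS-L1, with a median of 0.37, against 0.36 for HSC2, 0.65 for HSC3 and 0.47 for Ca9-22. For p53 targets the median was 0.14, against 0.24 for HSC2, 0.50 for HSC3 and 0.42 for Ca9-22. CDKN1A differed by -0.19 in SAS-L1, against 0.42 for HSC2, 0.75 for HSC3 and 0.83 for Ca9-22, with an adjusted p of the interaction of 1.00 in limma. YAP-TEAD targets had a median of -0.11, against -0.08 for HSC2, -0.53 for HSC3 and -0.14 for Ca9-22. CRIM1 differed by -0.63 in SAS-L1, against -1.64 for HSC2, -2.20 for HSC3 and -2.25 for Ca9-22. Interferon-stimulated genes had a median of 0.17, with 7 of 30 over 1.5-fold higher, against medians of -0.14 for HSC2, 0.50 for HSC3 and 0.21 for Ca9-22.

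Last, the genes that stood apart in SAS-L1 were read under the mimic. Among 85 genes with both arrays over 2-fold above every array of the other lines, the median difference was -0.07, with a range of -1.34 to 1.84, 5 were over 2-fold lower and 2 over 2-fold higher. Among the 74 genes over 2-fold below, which were chosen for low signal in SAS-L1, the median was -0.04, with a range of -0.97 to 1.09, and 2 were over 2-fold higher. The 24 leading genes of SAS-L1 differed by -0.70 (COXFA4L3) to 1.07 (CRNDE) between miR-375 and miR-NT.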

How the data were processed

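RNA of 4 OSCC lines was read on 8 Affymetrix Human Genome U219 arrays, 1 per line and mimic. The authors deposited log2 signals made by RMA in GeneSpring GX (background correction, normalization to one distribution, summary per probe set). RMA is also named in the notes of the submitters. No genome build is given in the sources used here. Gene symbols came from the platform annotation, updated through RefSeq, and 45178 of 45259 probe sets with 1 symbol matched. Of 49386 probe sets, 1327 with several symbols and 2800 with none were left out, and each of 18239 genes took its brightest probe set.

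Fits used limma 3.58.1 in R 4.3.3 (lmFit, eBayes) with Benjamini-Hochberg adjustment over all genes at 0.05. SAS-L1 was compared with the other lines on line means, and the interaction and the fit of the other 3 lines used the line as a block, since the pairing comes from the shared cell line. Scripts were tested on simulated data. The labels do not say that cultures were separate beyond the line, so p-values measure the spread between these arrays, and the number of arrays limits the precision.

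Members and lists were chosen with earlier results of these data known. Named genes were the 12 largest differences each way between SAS-L1 and the other lines among genes outside their range, up to 4 members per list by smallest p, the study's text candidates, the 10 largest SAS-L1 differences and the 10 smallest interaction p each way, and the 5 smallest and 5 largest SAS-L1 differences among genes over 2-fold in each other line. YAP1, KRT14, CDH1, VIM, SLCO1B3, DICER1, NQO1, further list members and the chromosome stretches were named after their values were seen. Genes of the Y chromosome and XIST are not named. Alternatives covered the unit of the identity test, probe sets, normalization, dim genes, variance model, block and each line left out. Animal, tissue and protein experiments were not analysed here.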

Additional observations from a re-analysis of the deposited data

Results flagged for a closer look

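At 20 genes named for their response, the signal moved one way with miR-375 in SAS-L1 and the other way in HSC2, HSC3 and Ca9-22. None of these differences passed the interaction test in limma, where the adjusted p of each was 1.00, and most are small. With higher signal in SAS-L1 and lower signal in the other 3 lines there were KIF20A (0.56), AXL (0.05), LIMCH1 (1.25), IL1B (0.21) and TIGD2 (0.15), with the SAS-L1 difference on the log2 scale in brackets. With lower signal in SAS-L1 and higher signal in the other 3 lines there were MANBA (-0.19), CTSB (-0.08), ARSA (-0.26), CDKN1A (-0.19), BBC3 (-0.13), CCNG1 (-0.21), CEBPB (-0.15), EDEM1 (-0.16), STC2 (-0.24), SREBF2 (-0.10), CPED1 (-1.06), USP43 (-0.51), PMEPA1 (-1.12), LYST (-0.66) and MFSD6 (-0.12). The widest were LIMCH1, which read 5.63 with miR-375 and 4.37 with miR-NT in SAS-L1, PMEPA1 with 6.89 with miR-375 and 8.01 with miR-NT, and CPED1 with 5.01 with miR-375 and 6.07 with miR-NT. At CDKN1A, CCNG1 and BBC3, which are targets of p53, the other lines differed by 0.15 to 1.04. The share of all genes with such opposite signs is not given here, so the count of 20 is not a result about SAS-L1. Those named for a small interaction p were chosen in part for such a difference. Leaving out the Y chromosome and XIST, no gene was over 1.5-fold higher in SAS-L1 and over 1.5-fold lower in each other line, or the reverse. No group held 4 or more arrays, so single arrays were not screened for outliers.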

How the results depend on the processing

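The comparison of SAS-L1 with the other lines depended on what counted as a sample. Against 0 genes each way on line means, 224 were called higher and 194 lower with 8 arrays counted singly, 32 and 24 with the line as a random block, 25 and 1 with trend and robust settings of eBayes, and 705 and 620 were different from each line when the 4 lines were separate terms. The miR-NT arrays alone, the miR-375 arrays alone, other normalizations, the mean of probe sets, the filter on dim genes and each line left out gave 0. The interaction gave 0 genes under every alternative, the fit with no replicate block included. Genes with both SAS-L1 arrays above the others numbered 2330 to 2972 (without Ca9-22) and below them 2242 to 3328 (without HSC3) with 1 line left out, where the range holds fewer arrays. Over genes called lower, the median SAS-L1 difference was -0.88 for genes over 2-fold in each other line, -0.81 to -0.61 with 1 of the calling lines left out, and -1.43 with no replicate block, which called 5 genes and none higher. Over genes called higher it was 0.32 with the mean of probe sets, 0.65 for genes over 2-fold in each other line and 0.44 to 0.63 with 1 line left out. Every median kept its sign. At 1.5-fold, 444 genes were lower and 453 higher in SAS-L1, and with the mean of probe sets 69 and 42 were past 2-fold. Of the 24 leading genes, none changed sign under any alternative run, which their choice for large differences in these arrays makes likely. Differences from signals near the floor may be understated, and 1 array per line and condition limits the precision.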
